A study of Mus musculus with 8 samples.

Results

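Expression was examined for 42 genes of the oxidative phosphorylation machinery in mouse CD8+ T cells: complex II (succinate dehydrogenase), complex III (the cytochrome bc1 complex) with its electron acceptor cytochrome c, and ATP synthase. Members were the rows of the deposited expression table whose symbol began with *Sdha*, *Sdhb*, *Sdhc*, *Sdhd*, *Uqcr*, *Uqcc* or *Atp5*, or was *Cyc1* or *Cycs*, with pseudogene symbols left out. This gave 42 of the 22520 rows, 8 for complex II, 16 for complex III and cytochrome c, and 18 for ATP synthase. The rule used names alone and no measured value. The study compared CD8+ T cells from mouse spleen that were given 40 µM diisopropylamine dichloroacetate (DADA) or an equal volume of its solvent DMSO. DADA inhibits pyruvate dehydrogenase kinase, the enzyme that switches off the entry of pyruvate into the mitochondrial citric acid cycle. The cells of both groups were selected by negative magnetic sorting and kept under anti-CD3 and anti-CD28 stimulation with IL-2 in culture, with DADA or DMSO from day 3 and harvest on day 6. Bulk RNA was sequenced from 4 samples a group. The genotype field of the labels reads "control" for the DMSO libraries and "model" for the DADA libraries, and the animals of the 8 libraries are described only as biological replicates. The model is a culture, so the cells had no tumour or tissue around them.

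Complex II oxidizes succinate to fumarate in the citric acid cycle and hands the electrons to ubiquinone (coenzyme Q) in the inner mitochondrial membrane. Complex III takes electrons from reduced ubiquinone, passes them to cytochrome c and moves protons across the membrane, and ATP synthase lets the protons flow back through its rotating ring and makes ATP. All subunits of complex II are encoded in the nucleus, whereas complex III and ATP synthase also need subunits encoded by mitochondrial DNA. In T cells, activation and memory formation are accompanied by changes in mitochondrial mass and respiration.

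Levels are FPKM, the fragments of a gene divided by transcript length and by library size, so levels of different genes can be set side by side. They are levels of RNA and do not measure protein, assembled complexes or respiration. A gene is called higher or lower when its Benjamini-Hochberg adjusted p from limma, fitted on log2(FPKM + 1), was under 0.05. The fit took in 10666 genes, those with at least 1 FPKM in 4 or more libraries. Every fold change below is on that scale as DADA against DMSO, with its standard error (SE). Adding up all FPKM of a library gave 450473 to 456939 in the DMSO group and 438299 to 449480 in the DADA group. The deposited values hold no read counts. The steps between low values gave a rough estimate of 13670000 to 16290000 fragments per DMSO library and 14740000 to 18540000 per DADA library. The medians were 14705000 and 17935000. At most 46.6% of the low values lay within 0.1 of a whole fragment. The part of this difference in depth in the results was not tested. The groups differed widely, with 66.2% of the genes tested called in either direction, 35.3% lower and 30.9% higher with DADA. Summed FPKM of 7 T cell markers (*Cd2*, *Lck*, *Cd3d*, *Cd3e*, *Cd3g*, *Cd8a* and *Cd8b1*) was 1026 to 1058 with DMSO and 1268 to 1302 with DADA. Among markers of other cells, the sums were at most 0.188 FPKM for 5 myeloid genes and 0.241 for 4 erythroid genes in any library, and *Csf1r*, *Adgre1* and *Hbb-bs* were listed at 0 in all 8. Of the B cell genes, *Cd79b* was at 2.42 to 3.47 FPKM with DMSO and 2.18 to 2.90 with DADA, *Cd79a* and *Ms4a1* were at most 0.190 and 0.0288 in any library, and *Pax5* was listed at 0 in all 8. The sums were 16.1 to 17.2 with DMSO and 15.2 to 15.7 with DADA for 3 CD4 T cell genes, and 13.3 to 14.2 and 10.1 to 11.2 for 3 NK cell genes. Nearly all of these sums came from *Zbtb7b* and *Eomes*, transcription factors that CD8+ T cells can also express. *Cd4* and *Ncr1* were at most 0.411 and 0.136 FPKM in any library. *Foxp3* (0.0426 to 0.103 with DMSO, 0.187 to 0.268 with DADA) and *Klrb1c* (at most 0.0484 with DMSO, 0.144 to 0.249 with DADA) were low but higher in all DADA libraries. The part of these shifts in the results below was not tested. In bulk RNA, less RNA per cell and fewer cells of one kind cannot be told apart.

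All 42 members passed the filter on low values. With DADA, 28 were called lower (66.7%, beside 35.3% of all genes tested), 3 were called higher (7.14%, beside 30.9%), and 11 were not called. The DADA libraries lay wholly below the DMSO libraries for 24 members, which happened for 32.2% of all genes tested, and wholly above them for 2 members, which happened for 28.4%. The changes were small. The median over the members was -0.21, beside -0.02 over all genes tested, single members ranged from -0.76 to 0.43, and none reached a log2 fold change of 1 in either direction. The 25th percentile of all genes tested was also -0.21. Members are abundant transcripts, and 29 of them averaged at least 50 FPKM. Of these, 20 were lower (69.0%) and 2 higher (6.90%), whereas 52.9% of the 1566 genes at that level were called lower and 28.7% higher, with a median of -0.11.

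**Figure D1:**
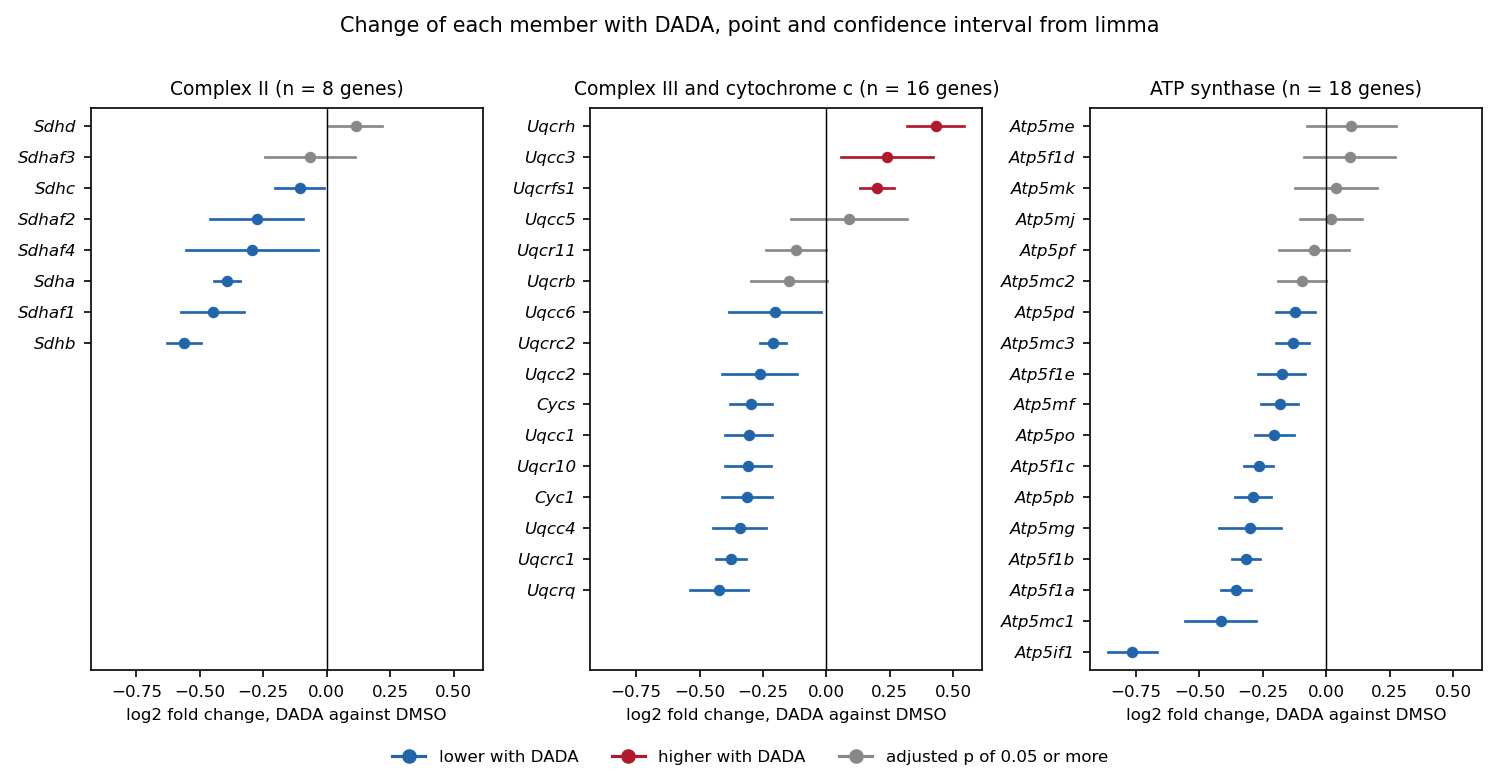
Log2 fold change of each of the 42 members with DADA against DMSO (x axis, log2(FPKM + 1) scale), with the 95% confidence interval from limma as a bar and the colour giving the call. Most points sit left of 0, down to -0.76 for *Atp5if1*, and 3 members of the complex III group, *Uqcrh*, *Uqcc3* and *Uqcrfs1*, sit to the right as called genes.

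Promoters are shown for 4 members on which the results turn, the largest fall in complex II (*Sdhb*), the largest rise of all members (*Uqcrh*), cytochrome c (*Cycs*) and the largest fall of all members (*Atp5if1*). The sequences are RefSeq windows of 300 bases, from 250 before to 50 after the transcription start, on GRCm38.p6, printed 5′ to 3′ on the gene's own strand. Capitals mark the letters of 3 short motifs on either strand, GCATGCGC for nuclear respiratory factor 1 (NRF1), CCGGAAG for ETS factors such as GABPA, and AAGGTCA for estrogen-related receptors (ERR), all known from promoters of respiratory chain genes. *Sdhb* lies on the plus strand at chr4:140961021-140961320, *Uqcrh* on the minus strand at chr4:116075021-116075320, *Cycs* on the minus strand at chr6:50566520-50566819, and *Atp5if1* on the minus strand at chr4:132535365-132535664.
Sdhb: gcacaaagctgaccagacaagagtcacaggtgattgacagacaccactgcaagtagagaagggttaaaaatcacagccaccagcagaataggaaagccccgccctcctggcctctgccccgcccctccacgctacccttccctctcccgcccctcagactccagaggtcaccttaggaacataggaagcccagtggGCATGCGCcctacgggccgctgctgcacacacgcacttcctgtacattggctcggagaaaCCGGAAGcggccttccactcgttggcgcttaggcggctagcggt
Uqcrh: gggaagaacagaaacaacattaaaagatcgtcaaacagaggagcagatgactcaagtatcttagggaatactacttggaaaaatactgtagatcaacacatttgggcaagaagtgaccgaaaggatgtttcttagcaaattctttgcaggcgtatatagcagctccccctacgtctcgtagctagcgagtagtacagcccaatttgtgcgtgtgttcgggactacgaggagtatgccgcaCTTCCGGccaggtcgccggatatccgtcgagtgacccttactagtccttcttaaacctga
Cycs: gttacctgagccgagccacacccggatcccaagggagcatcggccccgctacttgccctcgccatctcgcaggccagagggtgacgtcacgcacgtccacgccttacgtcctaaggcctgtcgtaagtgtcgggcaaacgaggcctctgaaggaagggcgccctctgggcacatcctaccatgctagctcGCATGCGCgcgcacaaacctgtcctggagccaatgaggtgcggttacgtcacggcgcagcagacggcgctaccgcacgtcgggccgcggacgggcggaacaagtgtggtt
Atp5if1: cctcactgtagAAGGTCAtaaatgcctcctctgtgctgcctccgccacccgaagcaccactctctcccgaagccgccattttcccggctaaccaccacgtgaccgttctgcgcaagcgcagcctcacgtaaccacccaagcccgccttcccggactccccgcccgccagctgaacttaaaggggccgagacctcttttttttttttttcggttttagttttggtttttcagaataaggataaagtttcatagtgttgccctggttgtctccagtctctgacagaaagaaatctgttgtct
The *Sdhb* window held an NRF1 and an ETS match, that of *Uqcrh* an ETS match on the opposite strand, that of *Cycs* an NRF1 match, and that of *Atp5if1* an ERR match. RefSeq windows were matched to 34 members, all but *Atp5f1a*, *Atp5mj*, *Atp5po*, *Cyc1*, *Sdhc*, *Uqcrb*, *Uqcrc2* and *Uqcrq*. The NRF1 letters were in 7 of these (20.6%, beside 2.71% of all 32851 promoter windows), the ETS letters in 14 (41.2%, beside 8.86%), the ERR letters in 7 (20.6%, beside 4.72%), and AAGATGG, a core of YY1 sites, in 4 (11.8%, beside 6.34%). A member counted when any of its windows held the letters, while the shares set beside are of single windows, from genes expressed here or not. *Atp5f1c*, *Atp5f1d* and *Atp5pf* had 2 windows each. Among the 22 members called lower with a window, 4 held the NRF1 letters, 7 the ETS letters, 4 the ERR letters and 3 the YY1 letters. Of the 3 members called higher, *Uqcrh* held the ETS letters, *Uqcc3* the ERR letters, and *Uqcrfs1* held none of the 4 motifs. Members that were not called also held such letters. The NRF1 letters were in *Atp5mc2*, *Atp5me* and *Uqcr11*, and the ETS letters in *Atp5me*, *Atp5mk*, *Atp5pf*, *Sdhaf3*, *Sdhd* and *Uqcr11*. The ERR letters were in *Atp5me* and *Sdhd*, and the YY1 letters in *Atp5pf*. A link between the letters and the calls was not tested. A match describes the letters in the window and not the binding of a factor.

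In complex II, the subunits that oxidize succinate, *Sdha* and *Sdhb*, were lower in every DADA library than in any DMSO library. The membrane anchors differed less, with log2 fold changes of -0.11 for *Sdhc* and 0.11 for *Sdhd*. Of the 8 complex II genes, 6 were called lower, none higher and 2 were not called, with a median of -0.285. Over all genes tested, 35.3% were lower and 30.9% higher. The count for complex II depended on the processing. With TPM or median-ratio scaling the split was 4 lower and 1 higher. With no filter on low values or with no variance trend it was 4 lower and none higher.

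*Sdha*, the flavoprotein where succinate is oxidized, was at 95.0, 96.8, 96.4 and 96.0 FPKM in the DMSO libraries and at 72.9, 72.3, 71.3 and 75.3 in the DADA libraries. The 4 DMSO libraries were nearly level, and every DADA library lay below all of them. The mean fell from 96.0 ± 0.788 (SD, n = 4) to 73.0 ± 1.71 FPKM, a change of -24.0%, with a log2 fold change of -0.39 (SE 0.0226, limma adjusted p = 1.86e-07). *Sdhb*, which carries the iron-sulphur clusters that pass the electrons on, was at 128, 125, 119 and 123 FPKM with DMSO and at 83.1, 86.3, 80.4 and 84.7 with DADA. These groups were also apart, with 119 as the lowest DMSO and 86.3 as the highest DADA library. *Sdhb* changed by -32.5% in the mean, with a log2 fold change of -0.56 (SE 0.0300, limma adjusted p = 1.07e-07), the largest change in complex II.

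*Sdhc*, an anchor subunit that helps to hold the heme and the ubiquinone site, was at 26.9, 24.2, 26.1 and 24.2 FPKM with DMSO and at 22.8, 24.7, 23.4 and 22.9 with DADA. The groups overlapped, as DADA replicate 2 lay above 2 of the DMSO libraries. *Sdhc* was called lower by a narrow margin, with a log2 fold change of -0.11 (SE 0.0425, limma adjusted p = 0.0476). The call was lost without DMSO replicate 1 or 3 or DADA replicate 1, 3 or 4, with values from -0.13 to -0.08 when 1 library was left out. The other anchor, *Sdhd*, was at 63.7, 64.9, 71.2 and 70.6 FPKM with DMSO and at 76.6, 75.9, 68.7 and 71.8 with DADA. Its groups overlapped through DADA replicate 3, and its log2 fold change of 0.11 (SE 0.0464, 95% interval 0.01 to 0.22, limma adjusted p = 0.0518) missed the threshold. The interval is that of a single gene, before adjustment. *Sdhd* was called higher under 7 of 17 alternative settings, among them TPM, median-ratio and quantile scaling and the fits without DMSO replicate 3 or 4 or DADA replicate 3. Its log2 fold change lay between 0.09 and 0.14 when 1 library was left out. The level of *Sdhd* relative to *Sdhb* went from 0.547 ± 0.0471 to 0.876 ± 0.0338 (n = 4 each), with 0.497 to 0.597 in the DMSO libraries and 0.847 to 0.922 in the DADA libraries. This pair was chosen after its values were seen and has no test.

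Of the 4 assembly factors of complex II, 3 were called lower, beside 35.3% of all genes tested. These are too few genes to set apart from that share. *Sdhaf1*, which helps to place iron-sulphur clusters in *Sdhb*, was at 9.14, 9.50, 9.10 and 9.11 FPKM with DMSO and at 6.25, 7.01, 5.80 and 6.93 with DADA. The groups were apart, and the log2 fold change was -0.45 (SE 0.0558, limma adjusted p = 5.26e-05). *Sdhaf1* shares 1733 exon bases with *E130208F15Rik* on the opposite strand in GENCODE M21, and without a stated strand setting the reads of such a pair cannot be told apart. *Sdhaf2*, needed to attach the flavin to *Sdha*, had a mean of 28.0 ± 3.56 FPKM with DMSO and 22.9 ± 1.57 with DADA (log2 fold change -0.28, limma adjusted p = 0.0129), with overlapping groups. *Sdhaf4*, which binds flavinated *Sdha*, went from 6.88 ± 0.709 to 5.48 ± 1.14 FPKM (log2 fold change -0.29, limma adjusted p = 0.0470), and its groups overlapped. The call for *Sdhaf4* was lost without any single DMSO library and without DADA replicate 1 or 4, with values from -0.39 to -0.21. *Sdhaf3*, the lowest member, averaged 1.53 FPKM with DMSO and 1.42 with DADA and was not called.

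**Figure D2:**
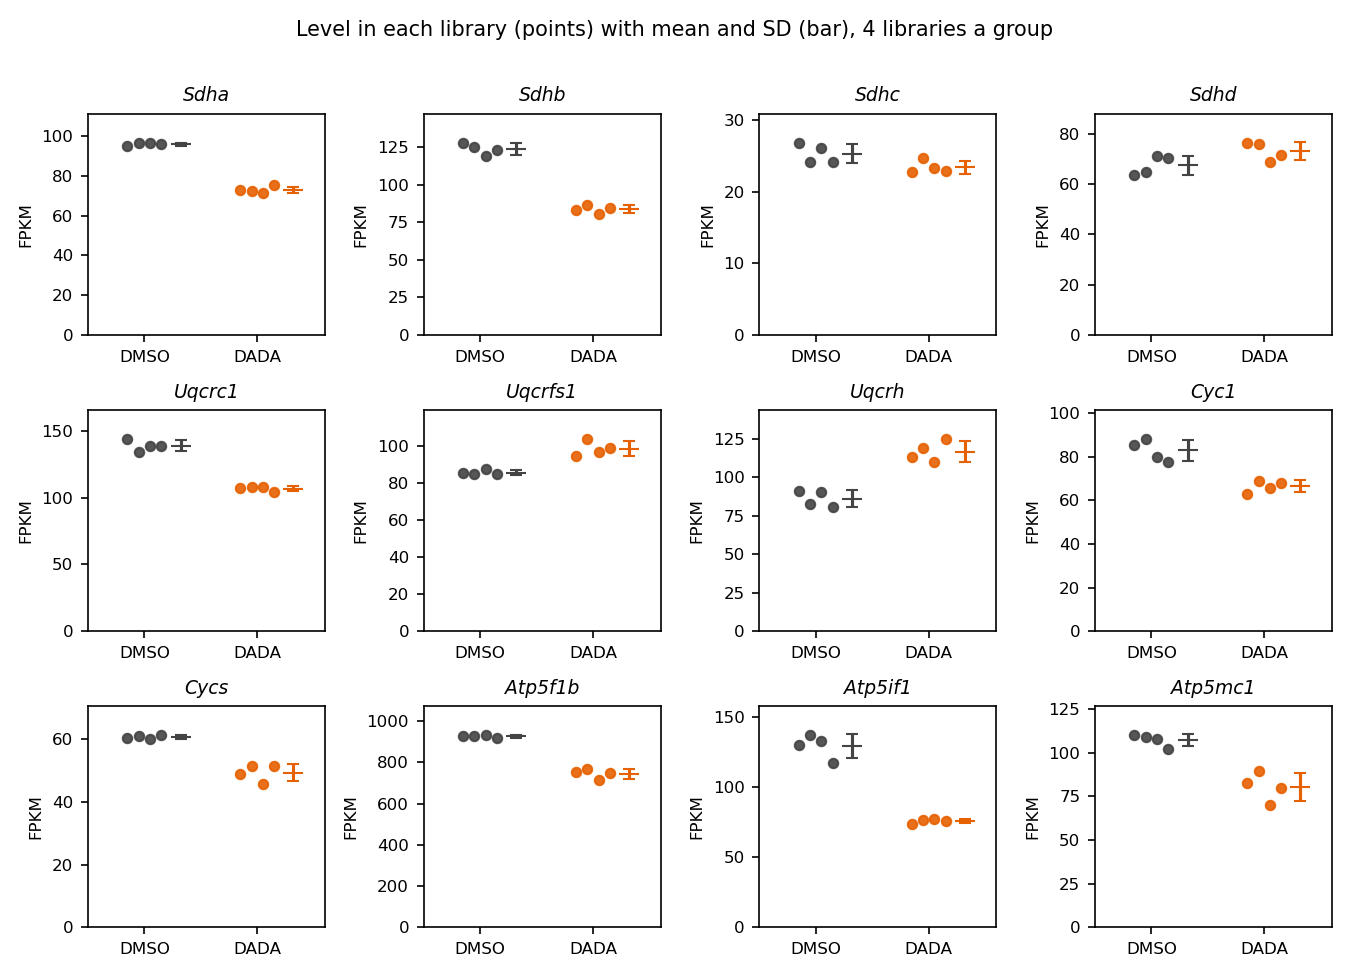
FPKM (y axis, from 0) of 12 members in each library, with DMSO in grey and DADA in orange, points for the 4 libraries of each group and a bar for mean and SD. *Sdha*, *Sdhb*, *Uqcrc1*, *Cyc1*, *Cycs*, *Atp5f1b*, *Atp5if1* and *Atp5mc1* have all DADA points below the DMSO points, *Uqcrfs1* and *Uqcrh* have them above, and *Sdhc* and *Sdhd* overlap.

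In complex III, members were called in both directions. Of its 16 genes, cytochrome c included, 10 were called lower (62.5%), 3 higher (18.8%) and 3 were not called, with a median of -0.24. Over all genes tested, 35.3% were lower and 30.9% higher. Among the 9 structural subunits of complex III, 5 were lower (55.6%), 2 higher (22.2%) and 2 not called. All of these but *Uqcr11* averaged at least 50 FPKM. Of all genes tested at that level, 52.9% were lower and 28.7% higher, so the shares of the subunits were near those. Transcripts of the core proteins and cytochrome c1 were lower with DADA, while those of the Rieske protein and the hinge protein were higher.

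*Uqcrc1*, one of the large core proteins that face the matrix, was at 144, 134, 139 and 139 FPKM with DMSO and at 107, 108, 108 and 104 with DADA. The groups did not overlap, and the mean changed by -23.2% (log2 fold change -0.38, SE 0.0257, limma adjusted p = 6.47e-07). The other core protein, *Uqcrc2*, fell from 151 ± 3.46 to 130 ± 2.12 FPKM (n = 4 each), with a log2 fold change of -0.21. *Cyc1*, cytochrome c1, which hands electrons to cytochrome c, was at 85.4, 88.1, 79.9 and 77.7 FPKM with DMSO and at 62.8, 68.9, 65.7 and 68.0 with DADA. All DADA libraries were below the lowest DMSO library, and the log2 fold change was -0.31 (SE 0.0440, limma adjusted p = 0.000123). *Uqcrq*, a small subunit next to cytochrome b, had the largest fall of the complex, with 123, 116, 110 and 110 FPKM in the DMSO libraries against 86.6, 90.9, 77.9 and 85.4 in the DADA libraries. That is a change of -25.7% in the mean with no overlap (log2 fold change -0.42, SE 0.0510, limma adjusted p = 4.13e-05). *Uqcr10*, another small subunit, fell from 89.2 ± 3.37 to 71.9 ± 3.81 FPKM. For *Uqcrb* and *Uqcr11* the groups overlapped, with log2 fold changes of -0.15 (95% interval -0.30 to 0.00) and -0.12 (-0.237 to -0.003, before adjustment) that did not pass the test. *Uqcrb* passed it without DMSO replicate 4 (-0.22), and *Uqcr11* without DMSO replicate 4 or DADA replicate 2, with -0.16 as the lowest value when 1 library was left out.

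Against these, *Uqcrh*, the hinge protein at the docking site of cytochrome c, was at 91.1, 82.5, 90.5 and 80.8 FPKM with DMSO and at 113, 119, 110 and 125 with DADA. Every DADA library lay above every DMSO library. The mean rose from 86.2 ± 5.33 to 117 ± 6.62 FPKM, or by 35.2%, with a log2 fold change of 0.43 (SE 0.0503, limma adjusted p = 3.35e-05), the largest rise of the 42 members. *Uqcrfs1*, the Rieske iron-sulphur protein that takes the first electron from reduced ubiquinone, was at 85.4, 85.2, 87.5 and 85.0 FPKM with DMSO and at 94.6, 104, 96.8 and 99.3 with DADA. Its groups were apart as well, with a rise of 15.1% (log2 fold change 0.20, SE 0.0301, limma adjusted p = 0.000210). The ratio of *Uqcrfs1* to *Uqcrc1* went from 0.617 ± 0.0184 to 0.923 ± 0.0392, and that of *Uqcrh* to *Uqcrc1* from 0.619 ± 0.0286 to 1.09 ± 0.0782 (n = 4 each). The DMSO libraries ranged from 0.582 to 0.649 and the DADA libraries from 1.01 to 1.20 for *Uqcrh* to *Uqcrc1*, so *Uqcrh* was below *Uqcrc1* in each DMSO library and above it in each DADA library. These pairs were chosen after their values were seen and have no test.

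The 6 *Uqcc* genes encode factors that build complex III, several of them around newly made cytochrome b. Of these, 4 were lower (66.7%, beside 35.3% of all genes tested) and 1 was higher (16.7%, beside 30.9%). *Uqcc4* was at 8.20, 8.95, 8.40 and 8.90 FPKM with DMSO and at 6.38, 6.33, 6.56 and 7.08 with DADA, with no overlap (log2 fold change -0.34, SE 0.0467, limma adjusted p = 0.000105). *Uqcc1* and *Uqcc2*, which act together on cytochrome b, had log2 fold changes of -0.31 and -0.26, both without overlap. *Uqcc3*, which follows them in the same pathway, was at 12.0, 12.1, 10.8 and 10.1 FPKM with DMSO and at 14.1, 14.2, 11.3 and 14.5 with DADA. Only DADA replicate 3 fell within the DMSO range, and the log2 fold change was 0.24 (SE 0.0809, limma adjusted p = 0.0241). This call was lost without DMSO replicate 3 or 4 or DADA replicate 1, 2 or 4, with values from 0.19 to 0.32, and with the trend with length and GC content removed (0.15). *Uqcc6* was called lower (log2 fold change -0.20, limma adjusted p = 0.0486) with overlapping groups, and the call was lost without DMSO replicate 1, 3 or 4 or DADA replicate 3 or 4, with values from -0.24 to -0.14. *Uqcc5* averaged 3.10 FPKM with DMSO and 3.38 with DADA and was not called.

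Cytochrome c is the small soluble carrier between complexes III and IV, and also starts the caspase cascade when it is released into the cytosol. *Cycs* was at 60.3, 61.1, 60.2 and 61.3 FPKM with DMSO and at 49.0, 51.4, 45.6 and 51.3 with DADA. The DMSO libraries lay close together, and all DADA libraries were lower, with a change of -18.8% in the mean (log2 fold change -0.30, SE 0.0373, limma adjusted p = 5.82e-05). A near-identical gene, *Gm10053*, matches *Cycs* at 99.894% over 946 transcript bases, so the counting could split reads between them. *Gm10053* was lower too, at 21.1 ± 0.224 FPKM with DMSO and 17.6 ± 0.919 with DADA, and the sum of both went from 81.9 ± 0.780 to 66.9 ± 3.49 FPKM, a change of -18.3%.

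ATP synthase had 12 of 18 genes called lower (66.7%, beside 35.3% of all genes tested), none higher (beside 30.9%) and 6 not called. The median over its genes was -0.18. Its inhibitor, *Atp5if1*, fell more than any subunit. The catalytic F1 head, the peripheral stalk and the proton-carrying ring all had members that were lower. Of the 5 small membrane subunits 2 were lower (40.0%, near the 35.3% of all genes tested), with a median of 0.02. Of the 18 ATP synthase genes, all but *Atp5me* averaged at least 50 FPKM. At that level, 52.9% of all genes tested were lower and 28.7% higher.

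*Atp5if1* encodes inhibitory factor 1, which binds the F1 head and blocks the breakdown of ATP when the proton gradient collapses. It was at 130, 137, 133 and 117 FPKM with DMSO and at 73.7, 76.6, 76.9 and 75.5 with DADA. Even the lowest DMSO library, replicate 4, lay far above the highest DADA library. The mean fell from 129 ± 8.47 to 75.7 ± 1.48 FPKM, a change of -41.5%, with a log2 fold change of -0.76 (SE 0.0431, limma adjusted p = 1.60e-07), the largest change of all 42 members. GENCODE M21 places an antisense transcript, *Gm12999*, over 485 exon bases of *Atp5if1*, and the strand setting of the counting was not stated. *Atp5f1b*, the catalytic beta subunit, was the most abundant member, with 929, 929, 932 and 917 FPKM in the DMSO libraries and 751, 768, 712 and 749 in the DADA libraries. The groups were apart, and the log2 fold change was -0.315 (SE 0.0251, limma adjusted p = 2.01e-06). The ratio of *Atp5if1* to *Atp5f1b* was 0.140, 0.148, 0.142 and 0.128 with DMSO and 0.0981, 0.0997, 0.108 and 0.101 with DADA, so the inhibitor's transcript was lower in each DADA library also relative to the subunit it binds. This pair was chosen after its values were seen and has no test.

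The other subunits of F1 mostly fell with *Atp5f1b*. *Atp5f1a*, the alpha subunit that alternates with beta in the head, was at 440, 440, 433 and 424 FPKM with DMSO and at 337, 354, 334 and 331 with DADA, with no overlap (log2 fold change -0.36, SE 0.0256, limma adjusted p = 9.59e-07). *Atp5f1c*, the gamma subunit that forms the central shaft, fell from 216 ± 4.33 to 179 ± 4.69 FPKM, and *Atp5f1e*, the epsilon subunit at its foot, from 82.8 ± 3.25 to 73.3 ± 3.85. *Atp5f1d*, the delta subunit beside epsilon, was not called, at 152 ± 12.7 FPKM with DMSO and 162 ± 17.8 with DADA (log2 fold change 0.09, 95% interval -0.09 to 0.27). In the peripheral stalk, which keeps the head from turning, *Atp5pb* (-0.29), *Atp5po* (-0.20) and *Atp5pd* (-0.12) were lower in log2 fold change without overlap, whereas *Atp5pf* (-0.05, 95% interval -0.19 to 0.09) was not called. *Atp5pf* passed the test without DMSO replicate 1 (-0.12). Exons of *Atp5pf* and *Atp5pb* overlap those of *Gabpa* and *Wdr77* on the opposite strand, over 397 and 337 bases.

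The ring that proton flow turns is built of subunit c, and 3 genes, *Atp5mc1*, *Atp5mc2* and *Atp5mc3*, encode the same mature protein with different import sequences. *Atp5mc1* was at 110, 109, 108 and 102 FPKM with DMSO and at 82.6, 89.3, 70.2 and 79.5 with DADA, with no overlap (log2 fold change -0.42, SE 0.0618, limma adjusted p = 0.000189). *Atp5mc3* was at 214, 223, 205 and 220 FPKM with DMSO and at 195, 202, 195 and 194 with DADA, also apart but by less (log2 fold change -0.13, SE 0.0291, limma adjusted p = 0.00248). *Atp5mc2* was at 152, 171, 157 and 157 FPKM with DMSO and at 146, 159, 142 and 148 with DADA, and its groups overlapped (log2 fold change -0.09, SE 0.0418, limma adjusted p = 0.0708). Without DMSO replicate 1 or DADA replicate 2 the last passed the test, with -0.13 as the lowest value. Summed over the 3 genes, subunit c went from 481.8 ± 14.2 to 425.7 ± 17.8 FPKM, a change of -11.6%. The share from *Atp5mc1* was 22.3% ± 0.923 with DMSO and 18.9% ± 1.16 with DADA (n = 4 each), with 21.3% as the lowest DMSO library and 19.8% as the highest DADA library. That from *Atp5mc2* was 33.0% ± 0.871 and 35.0% ± 0.298, also without overlap, and that from *Atp5mc3*, 44.7% ± 0.992 and 46.2% ± 1.20, overlapped. These shares are a description, with no test. A processed pseudogene, *Gm10039*, matches *Atp5mc1* at 99.757% over 411 bases, so its level is uncertain where such reads were split.

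**Figure D3:**
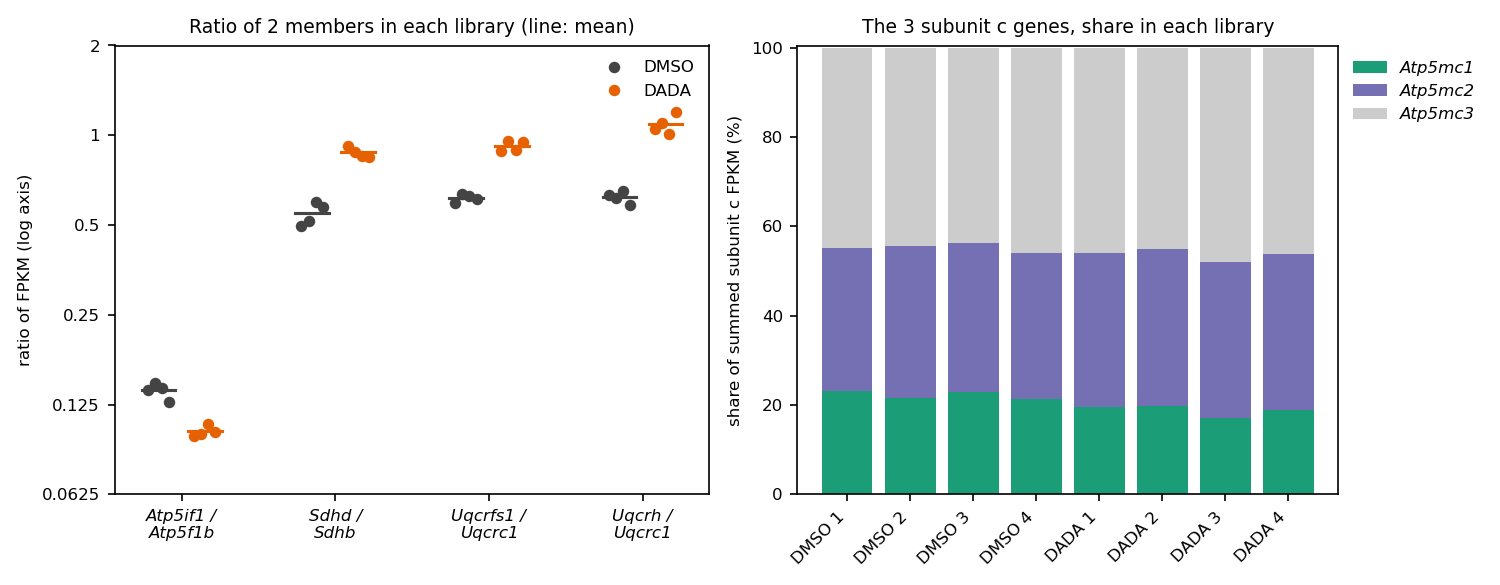
Left, ratio of the FPKM of 2 members in each library on a log axis, with DMSO in grey, DADA in orange and the mean as a line; the 4 ratios are apart between the groups, from 0.140 to 0.102 for *Atp5if1* over *Atp5f1b* and from 0.619 to 1.09 for *Uqcrh* over *Uqcrc1*. Right, share of the summed subunit c FPKM from each of the 3 genes in each library in percent, where *Atp5mc1* holds 21.3% to 23.1% with DMSO and 17.2% to 19.8% with DADA.

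Of the 5 small membrane subunits, which sit beside the ring and shape the dimer of the enzyme, 2 were lower and 3 were not called. *Atp5mg*, subunit g, fell from 121 ± 3.46 to 98.2 ± 8.59 FPKM, and *Atp5mf*, subunit f, from 56.3 ± 0.891 to 49.5 ± 2.26. *Atp5me*, *Atp5mk* and *Atp5mj* had log2 fold changes of 0.10 (95% interval -0.08 to 0.27), 0.04 (-0.12 to 0.20) and 0.02 (-0.11 to 0.14), with overlapping groups. Of the members not yet marked as such, *Atp5pd*, *Atp5po*, *Atp5f1c*, *Atp5mg*, *Uqcrb* and *Uqcc6* also have stretches near-identical to another gene in GENCODE M21, *Atp5po* shares 287 exon bases with *Donson* on the same strand, and *Atp5f1a* shares 129 with *Haus1* and *Uqcrc2* 504 with *Pdzd9* on the opposite strand, so their levels are uncertain where reads were split.

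By summed level per library of the nuclear-encoded subunits alone, complex II differed most and complex III least. These sums leave out the mitochondrially encoded subunits, which were abundant and did not fall. *mt-Cytb* of complex III averaged 986 FPKM with DMSO and 1118 with DADA, and *mt-Atp6* of ATP synthase 1418 and 1572. The sums therefore do not describe complex III or ATP synthase as a whole. The 4 subunits of complex II summed to 312.9 ± 1.13 FPKM with DMSO and 253.3 ± 6.65 with DADA, a change of -19.0%. The 9 subunits of complex III went from 849.3 ± 22.0 to 766.9 ± 22.9 FPKM, a change of -9.70%, and the 17 subunits of ATP synthase from 3225 ± 45.5 to 2752 ± 90.5, a change of -14.7%. All 42 members together held 1.04% of the summed FPKM of a DMSO library on average and 0.905% of that of a DADA library. Replicates were close, with a median coefficient of variation over the members of 4.96% with DMSO and 5.12% with DADA, and the widest were *Sdhaf2* with DMSO (12.7%) and *Sdhaf4* with DADA (20.8%).

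The subunits that mitochondrial DNA adds to these complexes were higher with DADA or not called. *mt-Cytb*, cytochrome b of complex III, was at 936, 1047, 1009 and 952 FPKM with DMSO and at 1070, 1175, 1089 and 1139 with DADA, with all DADA libraries higher (log2 fold change 0.18, SE 0.0417, limma adjusted p = 0.00321). *mt-Atp6*, the ATP synthase subunit that forms the proton channel beside the ring, was at 1363, 1478, 1390 and 1441 FPKM with DMSO and at 1578, 1599, 1517 and 1594 with DADA, again apart (log2 fold change 0.15, SE 0.0304, limma adjusted p = 0.00157). *mt-Atp8* was at 937, 1086, 1128 and 1090 FPKM with DMSO and at 1043, 1162, 1119 and 1126 with DADA, with overlap and no call (log2 fold change 0.07, 95% interval -0.05 to 0.20).

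These 3 genes belong to a list of 50 partner genes of the 3 complexes, of which 46 passed the filter. With DADA, 23 of the 46 were called lower (50%, beside 35.3% of all genes) and 7 higher (15.2%, beside 30.9%), with a median of -0.12. Coenzyme Q is what complex II feeds and complex III drains, and of 13 genes for its synthesis or handling 8 were lower (61.5%) and 1 was higher (7.69%). The 13 include *Coq10b*, called lower (log2 fold change -0.26), and *Coq10a*, not called. Both encode proteins that bind coenzyme Q and do not make it. The largest fall among called partners was *Coq8a*, an atypical kinase-like protein of coenzyme Q synthesis, at 4.41, 4.81, 4.35 and 4.72 FPKM with DMSO and at 2.99, 2.17, 2.17 and 2.46 with DADA. Its groups were far apart (log2 fold change -0.70, SE 0.0777, limma adjusted p = 2.37e-05). *Coq4* of the same pathway was at 4.01, 2.73, 4.22 and 3.43 FPKM with DMSO and at 5.22, 4.59, 4.24 and 4.40 with DADA (log2 fold change 0.30, SE 0.104, limma adjusted p = 0.0282). All DADA libraries of *Coq4* were above all DMSO libraries, the nearest at 4.24 and 4.22 FPKM.

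Of 6 tested genes of other routes that reduce coenzyme Q, 3 were lower and 2 higher, too few to set apart from the 35.3% lower and 30.9% higher of all genes. *Dhodh*, which feeds it from pyrimidine synthesis, was at 13.6, 14.2, 13.4 and 13.5 FPKM with DMSO and at 8.74, 10.1, 8.29 and 8.12 with DADA (log2 fold change -0.58, SE 0.0604, limma adjusted p = 1.44e-05). *Etfdh*, which feeds it from fatty acid oxidation, was at 21.5, 21.8, 22.2 and 23.3 FPKM with DMSO and at 28.5, 30.0, 28.0 and 28.9 with DADA (log2 fold change 0.37, SE 0.0335, limma adjusted p = 5.66e-06). The groups of *Dhodh* and of *Etfdh* were apart, in opposite directions. *Etfa* and *Etfb*, the flavoprotein that hands electrons to *Etfdh*, were both lower, from 84.1 ± 2.63 to 77.8 ± 3.75 FPKM (log2 fold change -0.11, limma adjusted p = 0.0231) and from 99.5 ± 1.26 to 85.4 ± 1.57 (-0.22, limma adjusted p = 9.90e-06). Of 6 genes grouped as assembly factors of ATP synthase outside the *Atp5* names, 3 were lower and none was higher. *Tmem70*, which helps to build the subunit c ring, was among the lower ones (log2 fold change -0.50). The 6 include *Dmac1*, an assembly factor of complex I, which was not called (log2 fold change 0.05). Of 6 tested genes for assembly of complex III and cytochrome c, 1 was lower and 1 was higher. Of 9 genes that shape the cristae, where ATP synthase sits, 6 were lower and none was higher. These lists are short, and their counts stand beside the same 35.3% lower and 30.9% higher of all genes. The carriers that bring ADP and phosphate to ATP synthase and take ATP away were called in all 3 cases tested, with *Slc25a5* (-0.23) and *Slc25a3* (-0.14) lower and *Slc25a4* (0.17) higher in log2 fold change.

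Complexes I and IV also pump protons. Of 38 tested genes with complex I (*Nduf*) subunit names, 23 were lower (60.5%, beside 35.3% of all genes) and 3 higher (7.89%, beside 30.9%). Their median was -0.17. They include *Ndufa4*, called lower (log2 fold change -0.26, limma adjusted p = 0.0132), which despite its name encodes a subunit of complex IV. Of 13 tested complex IV subunits with *Cox* names, so without *Ndufa4*, 4 were lower (30.8%) and 4 higher (30.8%). These shares were near those of all genes, and the median was 0.00. One of the 4, *Cox7a1*, was under 1 FPKM in every DMSO library and passed the filter only through the DADA libraries. Without it 4 of 12 were lower (33.3%) and 3 higher, with a median of -0.02 and a range from -2.79 (*Cox6a2*, a muscle-type isoform) to 0.57 (*Cox6b2*). No test between the complexes was made, since genes of a complex are not replicates of a condition.

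**Figure D4:**
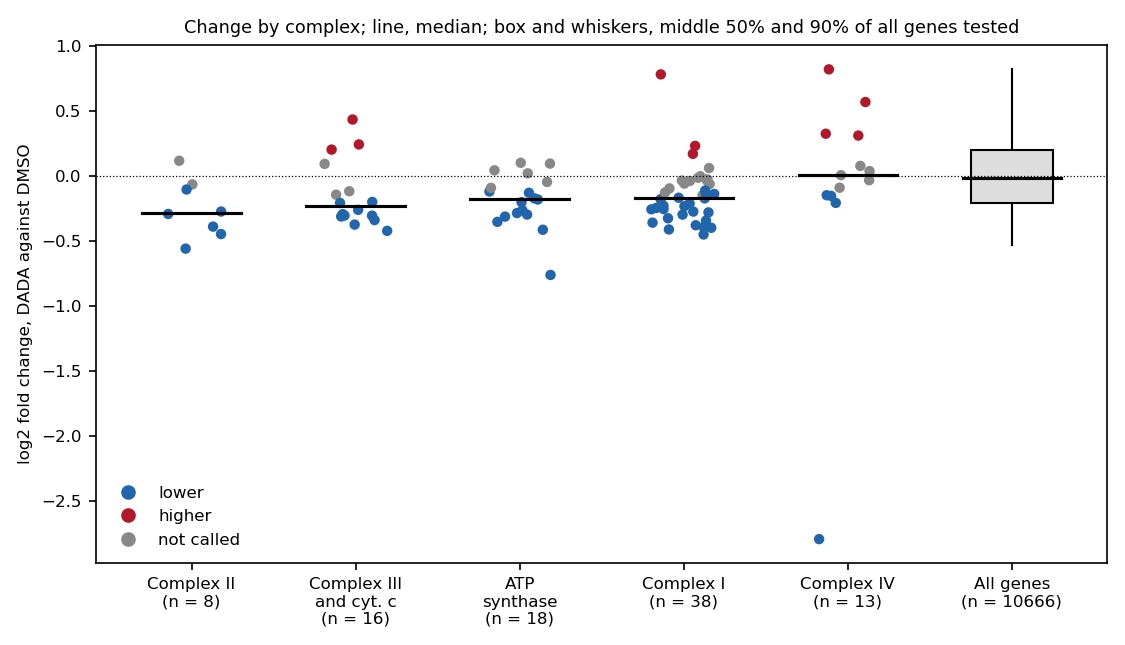
Log2 fold change with DADA against DMSO (y axis, log2(FPKM + 1) scale) of the tested genes of complex II, complex III with cytochrome c, ATP synthase, complex I and complex IV, coloured by call, with the median as a line, beside a box for all 10666 genes tested (25th to 75th percentile -0.21 to 0.20, whiskers from the 5th to the 95th percentile, -0.53 to 0.82). The medians are -0.285, -0.24, -0.18, -0.17 and 0.00 from left to right, the last with *Cox7a1* included. Complexes I and IV are grouped by gene name, so *Ndufa4*, a complex IV subunit, is shown with complex I.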

How the data were processed

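The authors deposited 1 table of FPKM values per gene for 8 bulk RNA-seq libraries sequenced with paired reads. The submitters' processing notes name CASAVA 1.8.2, FastQC 0.11.9, HISAT2 2.0.5, StringTie 1.3.3, Picard 1.41 and SAMtools 0.1.18 and the builds GRCm39 and GRCh38, with no role. The labels and the paper name different mRNA library kits, and the strand setting was not given in the sources used here. Gene coordinates on the submitters' build were not used here, and the RefSeq promoters are on GRCm38.p6, whose genes were matched by Ensembl and Entrez identifiers.

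FPKM values were used as deposited, as log2(FPKM + 1), for genes with at least 1 FPKM in at least 4 libraries. Differences were tested in limma 3.58.1 (R 4.3.3), where variances were moderated along their trend with the mean and p-values were adjusted by Benjamini-Hochberg across all 10666 genes. The model held 1 term, the treatment. Confidence intervals are 95%. The labels call the libraries biological replicates and name no animals, so p-values measure the spread between these libraries. The fit was tested on simulated data. One marker gene is not reported here. Members, partner genes, markers, lists and ratios were chosen with earlier results of these data known. Per-library values are given for the 3 largest called changes in each direction per complex, the complex II subunits, *Cyc1*, *Uqcrfs1*, *Cycs*, the subunit c genes, *Atp5if1*, *Atp5f1b*, the mitochondrially encoded partners and the 2 largest called partners in each direction; other genes are given by counts and ranges. Members named outside this rule were named after their values were seen. Near-identical copies (at least 95% over at least 200 bases) and exon overlaps came from GENCODE M21. Alternatives were a pseudocount of 0.1, no filter, a mean of at least 5 FPKM, TPM, median-ratio and quantile scaling, no trend, a replicate block, each library left out, and, added after seeing the data, removal of the trend with length and GC content. Figures were drawn with matplotlib 3.10.9 in Python 3.11.15.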

Additional observations from a re-analysis of the deposited data

Results flagged for a closer look

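Each of the 42 members was examined within the 4 DMSO and within the 4 DADA libraries for a single library far from the other 3, by Dixon's ratio (the gap to the nearest library over the whole range of the group, set against its critical value for 4 libraries). Of 84 such groups, 5 passed the limit, where chance flags about 1 in 20, or 4.20 groups. *Atp5mc3* was at 202 FPKM in DADA replicate 2 and at 194 to 195 in the other DADA libraries (ratio 0.955), and *Uqcc3* at 11.3 FPKM in DADA replicate 3 and at 14.1 to 14.5 in the others (ratio 0.868). In DMSO replicate 2, *Sdhaf4* was at 7.94 FPKM beside 6.48 to 6.60 (ratio 0.917) and *Sdhaf1* at 9.50 beside 9.10 to 9.14 (ratio 0.887). In DMSO replicate 3, *Uqcrfs1* was at 87.5 FPKM beside 85.0 to 85.4 (ratio 0.868). The calls for *Atp5mc3*, *Sdhaf1* and *Uqcrfs1* held when any single library was left out, and the adjusted p for *Sdhaf4* without DMSO replicate 2 was over the threshold (log2 fold change -0.233, limma adjusted p = 0.123), while that for *Uqcc3* without DADA replicate 3 was under it (log2 fold change 0.318, limma adjusted p = 0.0015).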

How the results depend on the processing

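Of the 31 members called, 27 kept their call under all 17 alternative settings, and *Sdhc*, *Sdhaf4*, *Uqcc6* and *Uqcc3* each lost it under at least 1. *Sdhc*, *Sdhaf4* and *Uqcc6* lost it with no filter, TPM scaling, median-ratio scaling and no trend. Complex II had 1 member called higher, *Sdhd*, instead of none with a mean of at least 5 FPKM, TPM, median-ratio and quantile scaling, and when single libraries were left out this count ranged from 0 to 1. The count of complex II members called lower lay between 4 and 6. Counts over all genes, partner genes, complex III and ATP synthase stayed within 1.5 times the main counts under all 17 settings. With the trend with length and GC content removed, which was added after seeing the data, the median was -0.236 over the ATP synthase members and -0.272 over all 42 members, while the median of all genes moved to -0.079. Changes of sign were seen for 7 members that were not called in the main analysis: *Atp5me* (-0.029), *Atp5f1d* (-0.028) and *Atp5mj* (-0.095) with that trend removed, *Uqcc5* (-0.028) and *Atp5pf* (0.010) with quantile normalization, and, with single libraries left out, *Sdhaf3* (-0.112 to 0.001), *Atp5mj* (-0.031 to 0.051) and *Atp5mk* (-0.027 to 0.080). Whether equal replicate numbers mark a shared animal is not stated. Same-numbered libraries had correlations of 0.095, -0.12, -0.088 and 0.075 in their deviations from the group means, which cannot settle it. With the replicate number as a block, 29 members were called lower and 3 higher, *Sdhc* was no longer called (log2 fold change -0.107, limma adjusted p = 0.0804), and *Uqcr11* and *Atp5mc2* were called lower. These 2 were also called lower with the trend with length and GC content removed, and *Sdhaf3* with quantile normalization. The depth is only an estimate, so the counting error of low members such as *Sdhaf3* and *Uqcc5* is not known. The cause of these shifts was not tested.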
